A study of Homo sapiens with 6 samples.

Results

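RAB proteins form the largest branch of the RAS superfamily of small GTPases, and 60 genes of the family, those whose symbol is RAB with a number and at most 1 letter, had probes on the arrays analysed here (67 probes of the 47289 with values). The study asked what the loss of CT16, a cancer-testis antigen encoded by PAGE5, does to the transcripts of A2058 cells, a human melanoma line. A2058 cells received CT16 siRNA for 48 h (3 arrays) or control siRNA for 48 h (3 arrays), and each array held the RNA of a separate culture on an Illumina Sentrix Human-6 Expression BeadChip. The methods name a single siRNA against CT16 for this experiment, so an effect of that siRNA on other transcripts cannot be told apart from an effect of CT16 loss, and all 6 cultures were 1 cell line. The probe of PAGE5 was above background on 0 of 6 arrays (detection p 0.178 to 0.815), so the silencing could not be read from these arrays. The paper reports, from measurements apart from the arrays, that its siRNAs lowered CT16 mRNA in A2058 cells.

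A probe counted as above background where its detection p-value, which compares it with the negative control beads, was under 0.05 on at least 3 of the 6 arrays. By that measure 43 RAB genes were measured and 17 were not (RAB3B, RAB3C, RAB3D, RAB11B, RAB14, RAB25, RAB27B, RAB28, RAB30, RAB33B, RAB37, RAB39A, RAB39B, RAB40A, RAB40B, RAB41 and RAB42). Of the 43, 36 were detected on all 6 arrays and 7 on 3 to 5 arrays, and 0 passed through the arrays of 1 group only. The gene with the most probes was RAB27A, with 4, of which 1 passed. RAB6C is a near copy of RAB6A, so signal of the probes of these genes may be shared and both are uncertain.

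RAB proteins cycle between a GDP-bound form, held in the cytosol by GDI proteins, and a GTP-bound form on membranes. Exchange factors load GTP, GTPase-activating proteins (GAPs) end the active state, and effectors such as tethers and motor adaptors carry out the transport step. Each organelle has its own members. RAB1, RAB2 and RAB6 proteins act at the ER and Golgi, RAB5 proteins at early endosomes, RAB4, RAB11 and RAB35 in recycling, and RAB7 and RAB9 proteins at late endosomes. Pigment cells also use RABs for the melanosome, the organelle that makes melanin. RAB32 and RAB38 take pigment enzymes to the maturing melanosome, RAB27A ties the ripe melanosome to actin through melanophilin (MLPH) and myosin Va (MYO5A), and RAB17 acts in melanosome release in mouse pigment cells. Melanosomal RABs here are RAB27A, RAB27B, RAB32, RAB38 and RAB17. Of this list of 5, 4 were measured and RAB27B was not above background.

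The pigment lineage factor MITF recognises the letters CATGTG and CACGTG, and the promoters of the measured melanosomal RABs and of RAB5B, on which the results below turn, are shown with any such letters in capitals. The windows run from 250 bases before to 50 bases after the first start listed in RefSeq (GRCh38.p14), and RAB38 had no entry. RAB5B lies at chr12:55973699-55973998 on the plus strand, RAB32 at chr6:146543583-146543882 on the plus strand, RAB27A at chr15:55319074-55319373 on the minus strand and RAB17 at chr2:237590685-237590984 on the minus strand.
RAB5B: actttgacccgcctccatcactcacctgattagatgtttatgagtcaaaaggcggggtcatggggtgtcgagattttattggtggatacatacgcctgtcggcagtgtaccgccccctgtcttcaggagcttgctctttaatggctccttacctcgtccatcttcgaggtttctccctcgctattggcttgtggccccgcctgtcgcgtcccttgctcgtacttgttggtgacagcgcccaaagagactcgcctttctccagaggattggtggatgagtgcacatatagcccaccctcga
RAB32: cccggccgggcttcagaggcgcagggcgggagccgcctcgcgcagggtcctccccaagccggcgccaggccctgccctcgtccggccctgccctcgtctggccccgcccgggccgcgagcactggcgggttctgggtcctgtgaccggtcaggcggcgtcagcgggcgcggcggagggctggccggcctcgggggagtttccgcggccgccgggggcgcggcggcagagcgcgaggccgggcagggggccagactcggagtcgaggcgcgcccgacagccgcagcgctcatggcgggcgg
RAB27A: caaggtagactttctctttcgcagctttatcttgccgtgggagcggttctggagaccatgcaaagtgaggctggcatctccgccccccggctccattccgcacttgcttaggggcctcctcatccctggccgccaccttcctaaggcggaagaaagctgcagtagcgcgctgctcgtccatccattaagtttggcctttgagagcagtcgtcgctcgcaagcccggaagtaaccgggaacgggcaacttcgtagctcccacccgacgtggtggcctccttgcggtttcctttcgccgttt
RAB17: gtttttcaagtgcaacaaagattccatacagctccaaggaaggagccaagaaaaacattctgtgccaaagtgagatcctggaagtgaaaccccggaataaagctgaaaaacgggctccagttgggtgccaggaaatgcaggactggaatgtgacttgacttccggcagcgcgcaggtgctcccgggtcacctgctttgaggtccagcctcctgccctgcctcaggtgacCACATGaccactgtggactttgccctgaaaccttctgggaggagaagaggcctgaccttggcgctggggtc
Only the RAB17 window of these 4 held a match, CATGTG read on the other strand, from base 230 of the window. Among the 34 measured RABs with a promoter entry, 3 held CATGTG on either strand (8.82%), against 11.2% of all 27305 promoters. The second motif, which reads the same on both strands, was in 6 of the 34 (17.6%), against 7.43% of all promoters. A match describes letters only. It does not show binding, and the absence of one says only that the letters are not in this window.

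RAB5B, which encodes 1 of 3 closely related RAB5 proteins of early endosome fusion, stood lowest among the 43 RABs after CT16 siRNA. Its signal as deposited was 587.3, 541.2 and 452.8 on CT16 siRNA arrays 1, 2 and 3, against 779.3, 879.4 and 797.6 on control siRNA arrays 1, 2 and 3. After quantile normalization the log2 signal was 9.04, 8.98 and 8.86 with CT16 siRNA, against 9.75, 9.87 and 9.61 with control siRNA. The groups did not overlap, and the gap between them was wider than the spread within either. RAB5B averaged 8.96 ± 0.092 with CT16 siRNA and 9.74 ± 0.13 with control siRNA (SD, n = 3 each), a log2 difference of -0.79 with a standard error of 0.11 (95% confidence interval -1.04 to -0.53), which is 1.72-fold lower. In the limma fit over 12082 probes RAB5B had rank 6 by p (unadjusted p = 0.000124), and its adjusted p of 0.202 did not pass 0.05. By the rank product, the test the study used, RAB5B passed with a false discovery rate (FDR) of 0.00133 in the lower direction. That FDR was 0.127 after neqc background correction and 0.0635 without control siRNA replicate 2, which end the call. Limma gave an adjusted p of 0.0459 with array 1 of CT16 siRNA left out and of 0.0429 with array 3 of CT16 siRNA left out. With array 2 of CT16 siRNA left out, the limma adjusted p was 0.844. It was 0.741, 0.939 and 0.675 with array 1, 2 and 3 of control siRNA left out.

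**Figure D1:**
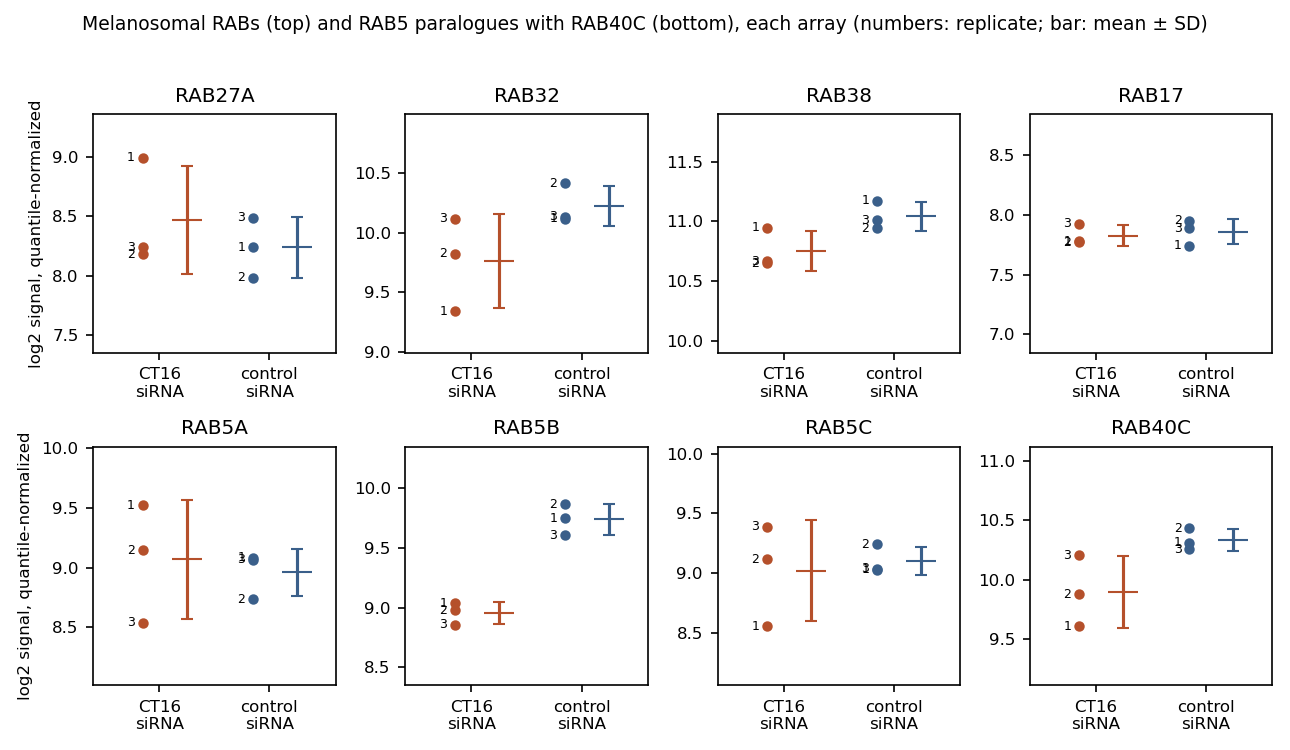
Log2 quantile-normalized signal (vertical axis) of the 4 measured melanosomal RABs (top) and of the RAB5 paralogues and RAB40C (bottom) on each array, with CT16 siRNA left and control siRNA right in each panel, points numbered by replicate and bars giving mean ± SD. The 3 CT16 siRNA arrays of RAB5B lie at 8.86 to 9.04, below the control siRNA arrays at 9.61 to 9.87, while RAB5A and RAB5C overlap.

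The other RAB5 genes did not share this pattern. RAB5A had log2 signals of 9.52, 9.15 and 8.54 with CT16 siRNA and 9.08, 8.74 and 9.06 with control siRNA, a difference of 0.11 with a standard error of 0.24. RAB5C had 8.55, 9.11 and 9.39 with CT16 siRNA and 9.03, 9.24 and 9.04 with control siRNA, a difference of -0.083 with a standard error of 0.20. In both, the CT16 siRNA arrays reached above and below all control siRNA arrays. The sign of each turned without CT16 siRNA replicate 1, to -0.12 for RAB5A and 0.15 for RAB5C, and RAB5A was -0.0040 without control siRNA replicate 2. To compare paralogues, the log2 signal of 1 probe minus that of its relative was taken on each array. The level of such a value depends on the probes and is not read, only its change between groups. RAB5B minus RAB5A was -0.49, -0.17 and 0.32 with CT16 siRNA and 0.67, 1.13 and 0.54 with control siRNA, a change of -0.89. RAB5B minus RAB5C was 0.48, -0.14 and -0.53 with CT16 siRNA and 0.72, 0.63 and 0.57 with control siRNA, a change of -0.70. Neither contrast overlapped between the groups, and each had p = 0.1 in a two-sided exact permutation test, the smallest p that 3 arrays against 3 allow (adjusted p = 0.5 over 10 contrasts of related RABs). Both contrasts reuse the RAB5B values that placed it lowest among the measured RABs, so they are a description and no separate support. The other 8 contrasts overlapped between the groups, with exact p of 0.2 to 1, among them RAB32 minus RAB38 (change of -0.18, exact p = 0.8).

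Among the melanosomal RABs, RAB32 and RAB38 had negative differences, RAB27A a positive one that rested on 1 array and RAB17 one close to 0, and none passed limma or the rank product. RAB32 gave signals of 714.9, 962.7 and 1154.0 with CT16 siRNA and 1006.1, 1309.6 and 1157.0 with control siRNA. On the normalized log2 scale these were 9.34, 9.82 and 10.12 with CT16 siRNA and 10.12, 10.42 and 10.14 with control siRNA. The groups did not overlap, but only just, since CT16 siRNA array 3 sat at the level of the lowest control siRNA array and array 1 stood far below. The log2 difference of RAB32 was -0.46 with a standard error of 0.20 (limma unadjusted p = 0.0501, adjusted p = 0.521, rank product FDR 0.148). Without CT16 siRNA replicate 1 it was -0.25. Without CT16 siRNA replicate 3 it was -0.64, and the rank product FDR was then 0.0133.

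RAB38, the close relative of RAB32, gave signals of 1891.5, 1692.5 and 1720.5 with CT16 siRNA and 2006.1, 1935.8 and 2164.8 with control siRNA. Its log2 values were 10.95, 10.65 and 10.66 with CT16 siRNA and 11.17, 10.94 and 11.01 with control siRNA. Here CT16 siRNA array 1 lay at the level of the lowest control siRNA array, so the groups overlapped by a single array. The log2 difference was -0.29 with a standard error of 0.12 (limma unadjusted p = 0.0476, adjusted p = 0.515, rank product FDR 0.355). The array that was lowest for RAB32 was thus the highest of its group for RAB38.

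RAB27A gave signals of 572.7, 303.3 and 290.4 with CT16 siRNA and 296.5, 228.6 and 356.9 with control siRNA. Its log2 values were 8.99, 8.18 and 8.24 with CT16 siRNA and 8.24, 7.98 and 8.49 with control siRNA, so that 1 CT16 siRNA array was high and the other 2 lay among the control siRNA arrays. The log2 difference was 0.23 with a standard error of 0.23 (limma adjusted p = 0.719), and it was -0.027 without CT16 siRNA replicate 1. The other 3 RAB27A probes were not above background on 3 arrays, so the difference rests on a single probe. RAB17 gave signals of 238.8, 215.1 and 235.4 with CT16 siRNA and 230.6, 224.6 and 229.3 with control siRNA, and its log2 difference was -0.035 with a standard error of 0.10 (limma adjusted p = 0.913). The groups of RAB17 overlapped fully, and its difference was 0.010 without control siRNA replicate 2.

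As a list, the melanosomal RABs overlapped with the rest of the family. The median log2 difference was -0.16 over the 4 melanosomal RABs and -0.044 over the 39 other RABs, beside 0.00034 over all 12082 probes. A median shift put 2 of the 4 above 0. With a wider list that adds RABs with other roles as well, such as RAB9A and RAB22A, the median was 0.060 over 10 genes and -0.072 over the other RABs. On each array, the mean log2 signal of the 4 melanosomal RABs minus that of the other RABs was 0.257, 0.155 and 0.343 with CT16 siRNA and 0.309, 0.370 and 0.399 with control siRNA. CT16 siRNA array 3 lay above control siRNA array 1, so the groups overlapped. Their best known partners were measured as well. MLPH had log2 signals of 8.66, 8.95 and 9.23 with CT16 siRNA and 8.93, 9.06 and 8.76 with control siRNA (difference 0.033, standard error 0.16), and MYO5A had 9.18, 8.77 and 8.48 with CT16 siRNA and 8.49, 8.40 and 8.79 with control siRNA (difference 0.25, standard error 0.19). Differences were 0.092 with a standard error of 0.17 for ANKRD27, an effector of RAB32 and RAB38, and -0.14 with a standard error of 0.13 for HPS1, which forms the exchange factor of the same RABs with HPS4. These 4 genes overlapped between the groups, and SYTL2 and HPS4 were not above background. With CT16 siRNA array 1 left out, the differences were 0.18 for MLPH, 0.068 for MYO5A, -0.048 for ANKRD27 and -0.060 for HPS1. With CT16 siRNA array 3 left out, they were -0.11 for MLPH, 0.42 for MYO5A, 0.25 for ANKRD27 and -0.25 for HPS1. MLPH was also negative, at -0.046, without control siRNA replicate 3.

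**Figure D2:**
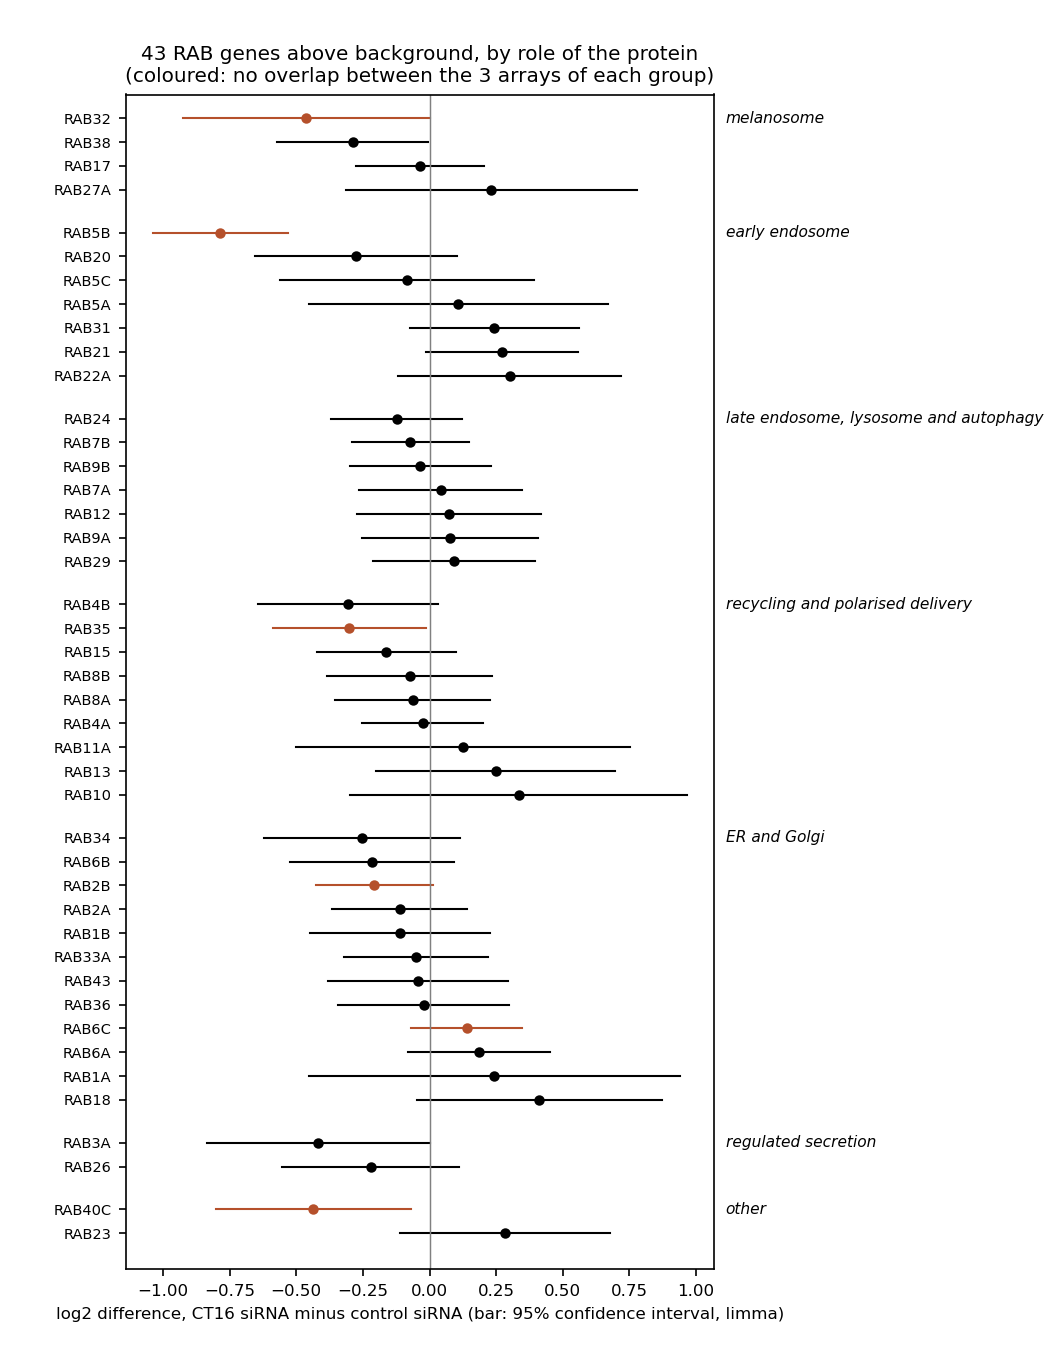
Log2 difference, CT16 siRNA minus control siRNA (horizontal axis), of the 43 measured RAB genes grouped by role, with the limma 95% confidence interval as a bar and genes whose 3 arrays per group do not overlap in colour. RAB5B at -0.79 stands alone at the left, and the intervals of most genes cross 0.

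Across all 43 RABs, 17 log2 differences were positive and 26 negative (60.5% negative, against 49.9% of all probes), and limma called 0 at an adjusted p under 0.05, as it called 0% of all probes. At an unadjusted p under 0.05, 0 RABs were higher (4.39% of all probes) and 4 were lower, namely RAB5B, RAB40C, RAB35 and RAB38 (5.17% of all probes, and 9.57% in either direction). These counts depended on the processing. After neqc background correction, 1 RAB was lower (RAB5B) and 2 higher (RAB6C and RAB21), beside 482 probes lower and 607 higher. After a median shift, 1 was lower (RAB5B) and 2 higher (RAB18 and RAB21), beside 92 probes lower and 962 higher. Groups without overlap were found for 1 RAB in the higher direction (7.39% of all probes) and for 5 in the lower direction (8.95% of all probes, and 16.3% in either direction). The rank product called 1 RAB lower, RAB5B, where 0.853% of the probes above background and 0.218% of all 47289 ranked probes were called lower, and 0 RABs higher, where the shares were 0.795% and 0.203%. The counts by p and by overlap lay near the shares of all probes, and nothing particular to the RAB family is read from them. Signs depended on the scaling. With a median shift in place of quantile normalization, which moved the median of all probes to 0.10, 27 RABs were positive and 16 negative, so that 37.2% of RABs were negative, against 25.9% of all probes.

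By role, the 7 early endosome RABs included the lowest of all, RAB5B, yet 4 of them had positive differences, with a median of 0.11 over the group. With a median shift 5 of the 7 were positive. RAB21, which carries integrins, had log2 signals of 8.17, 8.14 and 7.80 with CT16 siRNA and 7.81, 7.75 and 7.73 with control siRNA (difference 0.27, standard error 0.12). RAB22A, which sorts endosomal cargo, had 8.29, 7.95 and 7.59 with CT16 siRNA and 7.71, 7.48 and 7.73 with control siRNA (difference 0.30, standard error 0.18). Both overlapped at CT16 siRNA array 3. RAB22A differed by 0.13 without CT16 siRNA replicate 1 and by 0.48 without CT16 siRNA replicate 3. The late endosome, lysosome and autophagy RABs lay close to 0, with 7 differences of -0.12 to 0.092 (4 positive, and 6 with a median shift), and 0 of them passed limma or the rank product. RAB7A, the main late endosomal member, had 10.00, 9.90 and 9.59 with CT16 siRNA and 9.90, 9.69 and 9.78 with control siRNA (difference 0.042, standard error 0.13, and -0.042 without CT16 siRNA replicate 1).

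Of the 9 recycling RABs, 3 were positive and 6 negative, and with a median shift 6 were positive and 3 negative. RAB35, which drives fast recycling to the plasma membrane, had log2 signals of 9.38, 9.73 and 9.72 with CT16 siRNA and 9.96, 9.95 and 9.83 with control siRNA. These groups did not overlap (difference -0.30, standard error 0.12, limma adjusted p = 0.515), and the difference was -0.19 without CT16 siRNA replicate 1. RAB4B, a member of the rapid recycling pair RAB4A and RAB4B, had 8.19, 8.44 and 8.69 with CT16 siRNA and 8.66, 8.88 and 8.71 with control siRNA (difference -0.31, standard error 0.14), an overlap of 1 array. Its difference was -0.18 without CT16 siRNA replicate 1. RAB10, which takes the glucose transporter GLUT4 to the surface of fat cells, had 10.32, 9.70 and 9.17 with CT16 siRNA and 9.59, 9.16 and 9.44 with control siRNA. The CT16 siRNA arrays of RAB10 reached from the bottom of the control range to well above it, and its difference of 0.33 (standard error 0.27) was 0.041 with array 1 of CT16 siRNA left out and 0.61 with its array 3 left out.

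Among the 12 ER and Golgi RABs, 4 were positive and 8 negative, with a median of -0.048, and with a median shift 7 were positive and 5 negative. RAB18, which acts at the ER and on lipid droplets, had the largest positive difference of all RABs in the quantile-normalized values. Its log2 signals were 10.03, 9.50 and 9.27 with CT16 siRNA and 9.31, 8.998 and 9.25 with control siRNA, so the groups overlapped at CT16 siRNA array 3 (difference 0.41, standard error 0.20, limma adjusted p = 0.534). The difference of RAB18 was 0.20 without CT16 siRNA replicate 1. Its rank did not hold after neqc background correction, where RAB21 differed by 0.72, against at most 0.58 for RAB18 in any setting. RAB2B, of the pair RAB2A and RAB2B at the Golgi, had 9.30, 9.33 and 9.24 with CT16 siRNA and 9.56, 9.41 and 9.53 with control siRNA. These did not overlap, with a small difference of -0.21 (standard error 0.094). RAB6C, a retrogene of the Golgi gene RAB6A, had 7.69, 7.73 and 7.71 with CT16 siRNA and 7.60, 7.50 and 7.61 with control siRNA (difference 0.14, standard error 0.090). It was the only RAB whose CT16 siRNA arrays all lay above the control siRNA arrays. RAB6C was detected on 4 of 6 arrays, 3 with CT16 siRNA and 1 with control siRNA. It thus met the filter through the group where it was higher, and its lack of overlap is not read as a result.

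The remaining 4 RABs were those of regulated secretion, RAB3A and RAB26, and those outside the main transport steps, RAB40C and RAB23. RAB26 had a difference of -0.22 with a standard error of 0.14. RAB3A, which primes synaptic and secretory vesicles, had log2 signals of 9.82, 9.99 and 10.53 with CT16 siRNA and 10.57, 10.52 and 10.50 with control siRNA. A pair of CT16 siRNA arrays lay well below the tight control group and array 3 lay within it (difference -0.42, standard error 0.18, limma adjusted p = 0.521). Its difference was -0.27 with a limma adjusted p of 0.798 without CT16 siRNA replicate 1, against -0.63 with a limma adjusted p of 0.0475 and a rank product FDR of 0.00877 without CT16 siRNA replicate 3. RAB40C, a subunit of cullin ubiquitin ligases, had 9.61, 9.88 and 10.21 with CT16 siRNA and 10.31, 10.43 and 10.26 with control siRNA. Its groups did not overlap (difference -0.44, standard error 0.16, limma unadjusted p = 0.0255, adjusted p = 0.483, rank product FDR 0.181). The FDR of RAB40C was 0.0182 without CT16 siRNA replicate 3. RAB23, a negative regulator of Hedgehog signalling in mouse, had 8.38, 8.04 and 7.87 with CT16 siRNA and 7.98, 7.55 and 7.91 with control siRNA (difference 0.28, standard error 0.17). Its difference was 0.14 with array 1 of CT16 siRNA left out and 0.15 with array 2 of control siRNA left out.

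**Figure D3:**
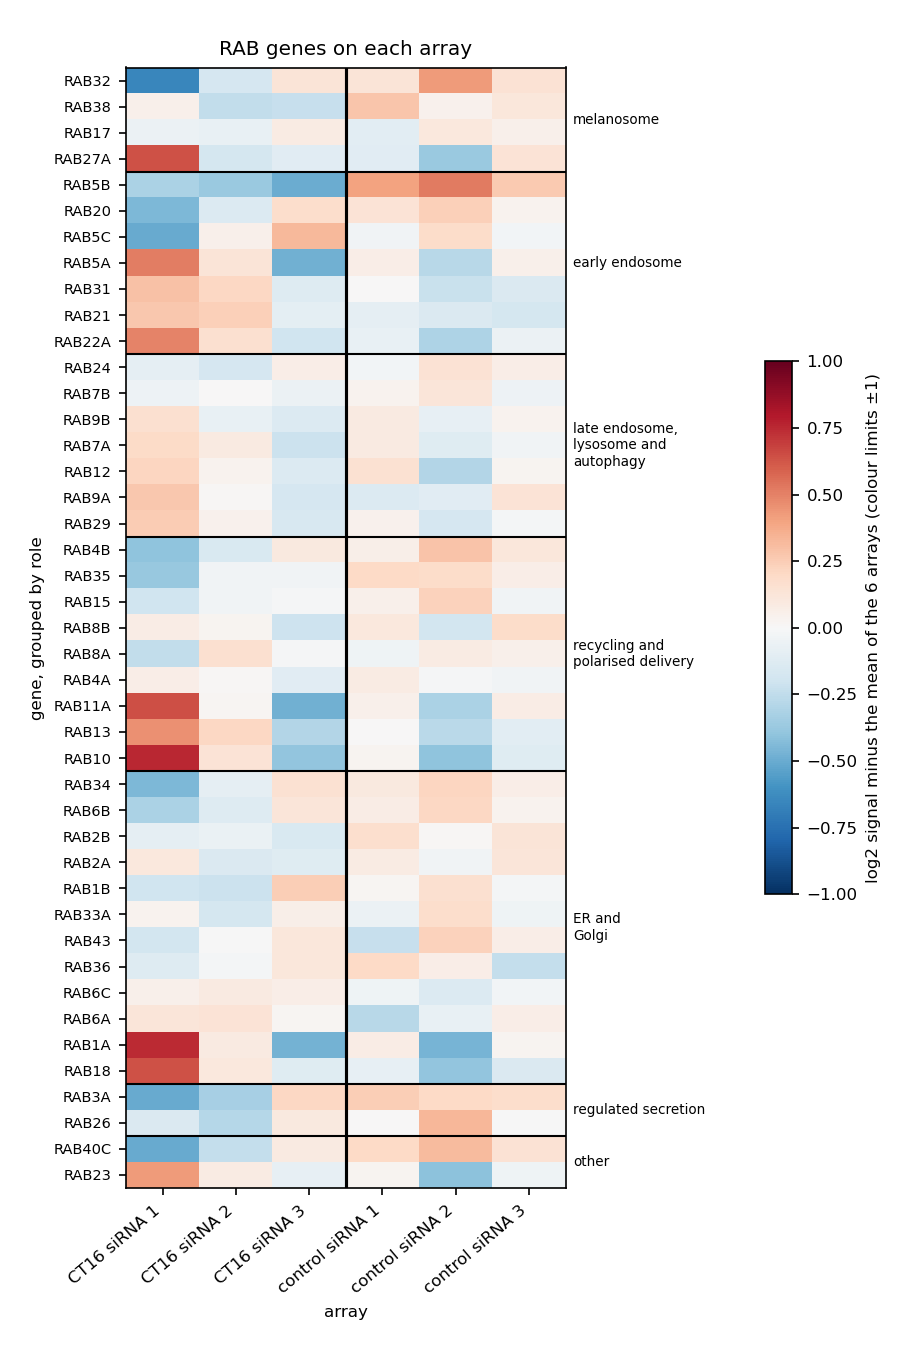
Log2 signal of each measured RAB gene minus its mean over the 6 arrays (colour), with genes in rows by role and arrays in columns, the 3 CT16 siRNA arrays left of the 3 control siRNA arrays. CT16 siRNA array 1 carries the strongest colours in both directions, and in several rows array 3 has the opposite colour.

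Across the family, 1 array stood apart. CT16 siRNA array 1 was the highest or the lowest of the 6 arrays for 27 of 43 RABs (62.8%), against 63.3% of all probes, being highest for 16 and lowest for 11. For 15 RABs (34.9%) control siRNA array 2 was at the other end, against 27.6% of all probes. The first principal component over all probes held 71.8% of the variance and placed the arrays at 37.5, 9.03 and -16.5 with CT16 siRNA and -4.49, -21.1 and -4.49 with control siRNA, so CT16 siRNA arrays 1 and 3 lay on either side of the control siRNA arrays 1 and 3. RAB1A, an ER to Golgi RAB, shows this order. Its log2 signals were 11.14, 10.48 and 9.91 with CT16 siRNA and 10.46, 9.92 and 10.42 with control siRNA (difference 0.24, standard error 0.30), and the difference was -0.070 without CT16 siRNA replicate 1. Leaving out CT16 siRNA array 1 turned the sign of 12 of the 43 RAB differences and, these included, moved 33 by over 1.5 times, as it moved 67.4% of all probes. For the other 5 arrays in turn, 10 to 25 RAB differences moved by over 1.5 times. The part of this array spread in each result was not tested. Without CT16 siRNA replicate 3, 25 of 43 RABs and 5743 of 12082 probes had groups without overlap, and 20 RABs had an unadjusted p under 0.05 in limma, 9 higher and 11 lower, as had 1921 probes higher and 1781 lower.

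**Figure D4:**
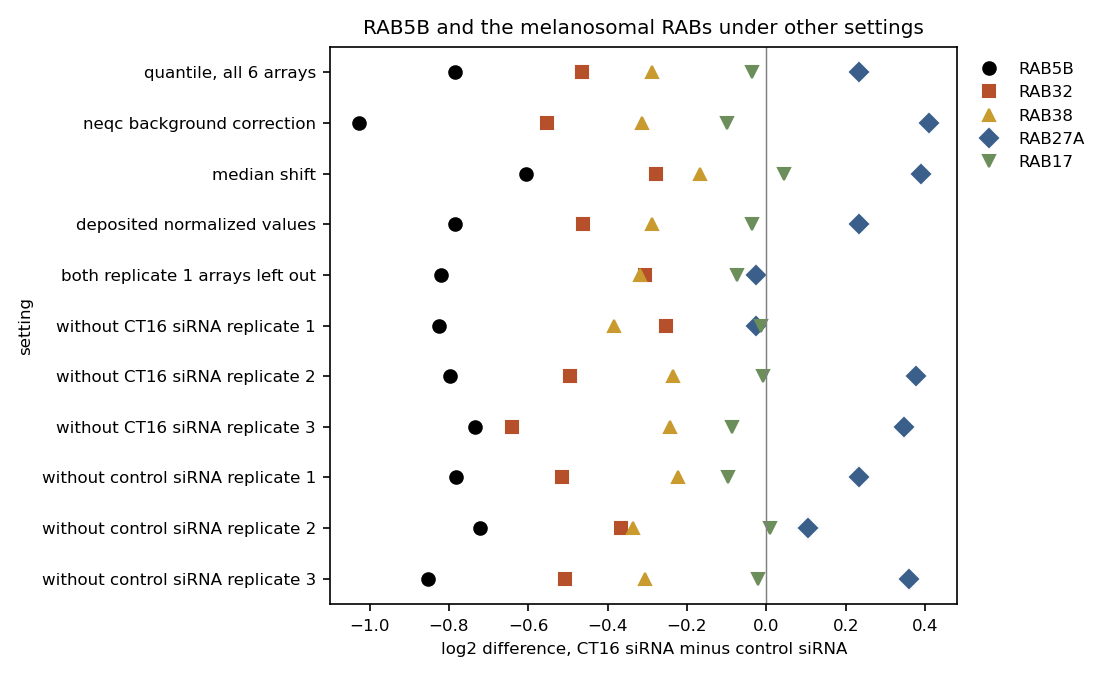
Log2 difference, CT16 siRNA minus control siRNA (horizontal axis), of RAB5B and the 4 measured melanosomal RABs under each normalization and with arrays left out (rows). RAB5B stays between -1.03 and -0.61 in these rows, RAB32 and RAB38 stay below 0, and RAB27A and RAB17 cross 0.

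Genes that load, release, switch or read RAB proteins were taken from a list of 125, of which 111 were on the platform and 80 above background. Of these 80, 37 differences were positive and 43 negative, with a median of -0.019, and with a median shift 59 were positive and 21 negative. Limma called 0 of them. In the same fit 2 were higher and 6 lower at an unadjusted p under 0.05, against 4.39% and 5.17% of all probes. Without overlap between the groups, 5 were higher and 7 lower, against 7.39% and 8.95% of all probes. Nothing particular to these genes is read from the counts. The rank product called 1 lower, TBC1D16, where 0.853% of the probes above background were called lower, and 0 higher, where the share was 0.795%. TBC1D16 encodes a GAP of RAB4A and had log2 signals of 10.48, 10.67 and 10.79 with CT16 siRNA and 11.47, 11.41 and 11.28 with control siRNA. All 3 CT16 siRNA arrays lay well below the control siRNA arrays. Its difference was -0.74 with a standard error of 0.12 (limma adjusted p = 0.229, rank product FDR 0.00182). That FDR was 0.387 after neqc background correction, and 0.0913, 0.0616 and 0.0589 without control siRNA replicate 1, 2 and 3, each of which ends the call. The limma adjusted p of TBC1D16 was 0.0418 without CT16 siRNA replicate 3. With each other array left out in turn it did not pass 0.05, and it reached 0.939.

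Of the exchange factors and GAPs in the list, DENND1A and TBC1D13 came next among those that lay lower without overlap, and both act on RAB35. The exchange factor DENND1A had log2 signals of 8.24, 8.61 and 8.83 with CT16 siRNA and 9.01, 9.31 and 8.92 with control siRNA (difference -0.52, standard error 0.17, limma adjusted p = 0.481). The GAP TBC1D13 had 8.08, 8.41 and 8.51 with CT16 siRNA and 8.57, 8.89 and 8.58 with control siRNA (difference -0.34, standard error 0.15, limma adjusted p = 0.521, and -0.22 without CT16 siRNA replicate 1). In each, CT16 siRNA array 1 was lowest and array 3 came close to the control siRNA arrays. TBC1D10A and TBC1D10B, which also act as GAPs of RAB35, had differences of -0.21 and -0.25 (standard error 0.15 each), with overlap between the groups. None of these genes passed limma or the rank product, and without CT16 siRNA replicate 3 the rank product FDR of DENND1A was 0.0093.

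The 16 measured melanosome partners comprised 6 positive and 10 negative differences (13 and 3 with a median shift), with 4 that did not overlap, each in the lower direction (8.95% of all probes lay lower without overlap, and with so few genes nothing particular to them is read from the count), and 0 that passed limma or the rank product. HPS5, a subunit of the BLOC-2 complex that serves melanosome cargo, had log2 signals of 9.16, 8.93 and 8.67 with CT16 siRNA and 9.36, 9.23 and 9.28 with control siRNA (difference -0.37, standard error 0.14, limma adjusted p = 0.486). Here array 3, not array 1, was the lowest. The rank product FDR of HPS5 was 0.143, and 0.0187 without CT16 siRNA replicate 1, while its difference was -0.24 without CT16 siRNA replicate 3. HPS6, another BLOC-2 subunit, differed by -0.25 with a standard error of 0.14, and by -0.11 without CT16 siRNA replicate 1. SYTL3 and SYTL4, synaptotagmin-like effectors of RAB27 proteins, differed by -0.34 with a standard error of 0.12 and by -0.20 with a standard error of 0.098. The largest difference in size among the 16 partners was positive, that of BLOC1S2, at 0.48 with a standard error of 0.24. The groups of BLOC1S2 overlapped, and its difference was 0.21 without CT16 siRNA replicate 1.

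In the higher direction, 4 machinery genes had the largest differences among those without overlap. TBC1D15, a GAP of RAB7, had log2 signals of 9.52, 8.78 and 8.61 with CT16 siRNA and 8.50, 8.39 and 8.61 with control siRNA (difference 0.47, standard error 0.23). The lowest CT16 siRNA array and the highest control siRNA array of TBC1D15 were the same after rounding, and its difference was 0.20 without CT16 siRNA replicate 1. GOLGA2, the Golgi matrix protein GM130 that binds RAB1, had 11.64, 11.24 and 11.26 with CT16 siRNA and 10.74, 10.997 and 11.06 with control siRNA (difference 0.45, standard error 0.15, limma adjusted p = 0.481). BICD1, a dynein adaptor bound by RAB6, had 8.26, 7.98 and 7.89 with CT16 siRNA and 7.88, 7.63 and 7.85 with control siRNA (difference 0.26, standard error 0.13, and 0.15 without CT16 siRNA replicate 1). RABGGTB, the catalytic subunit of the enzyme that puts geranylgeranyl lipids on RAB proteins, had 8.52, 8.32 and 8.18 with CT16 siRNA and 7.98, 7.84 and 8.14 with control siRNA (difference 0.36, standard error 0.13, limma adjusted p = 0.483). Its partner subunit RABGGTA, named after its values were seen, had 8.37, 8.86 and 9.24 with CT16 siRNA and 9.15, 9.46 and 9.23 with control siRNA (difference -0.46, standard error 0.21), with an overlap at array 3. The rank product FDR of RABGGTA was 0.151, and 0.00868 without CT16 siRNA replicate 3, while its difference was -0.23 without CT16 siRNA replicate 1. The probes of this 1 enzyme thus had differences of opposite sign, and neither passed limma or, with all arrays, the rank product.

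**Figure D5:**
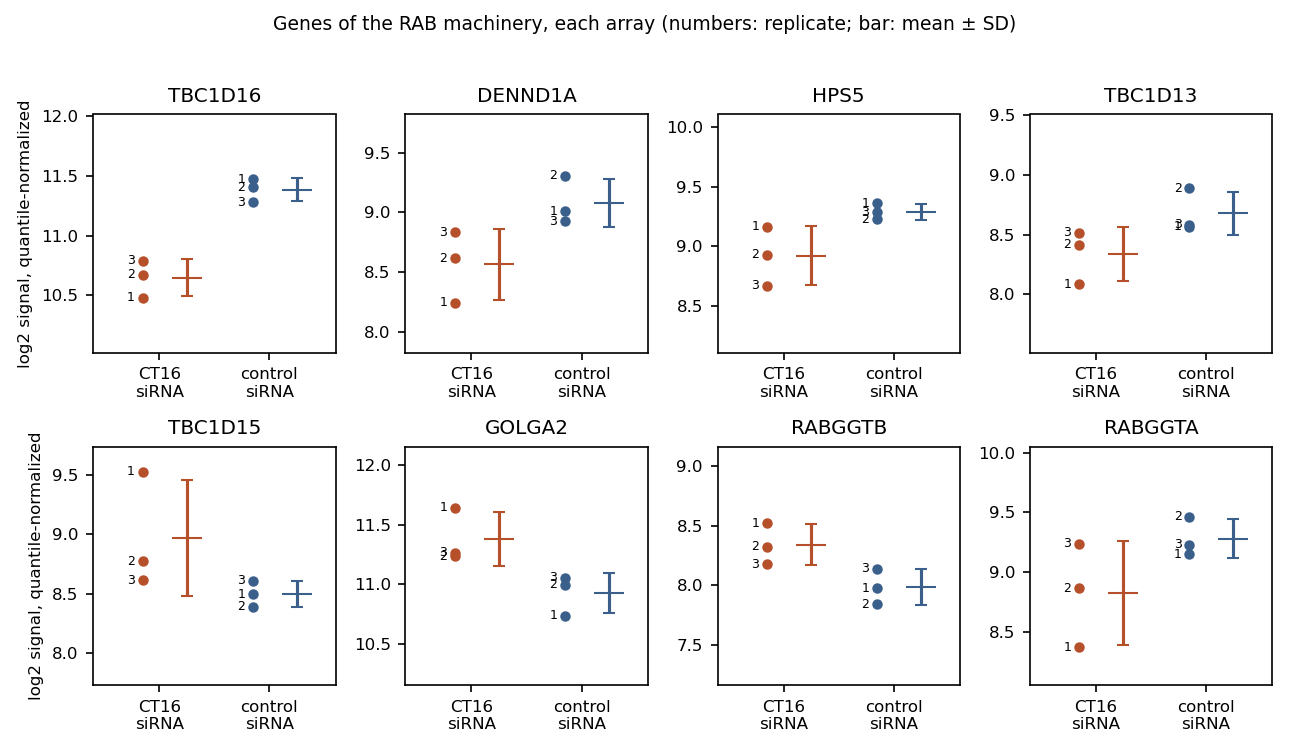
Log2 quantile-normalized signal (vertical axis) of 8 genes of the RAB machinery on each array, with CT16 siRNA left and control siRNA right in each panel, points numbered by replicate and bars giving mean ± SD. TBC1D16 lies at 10.48 to 10.79 with CT16 siRNA, below 11.28 to 11.47 with control siRNA, and RABGGTA is the only panel whose groups overlap.

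The cells were checked against markers. Of 7 melanocyte lineage markers, 5 were detected on at least 3 arrays (SOX10, MITF, PMEL and TYR on all 6, and S100B on 4), MLANA was detected on 1 array, and DCT was not matched on the platform. TYR differed by -0.50 (standard error 0.098, limma adjusted p = 0.300, rank product FDR 0.04) and PMEL by -0.35 (standard error 0.12), both without overlap. Of the probes above background, 8.95% lay lower without overlap and 0.853% were called lower by the rank product. With overlap, SOX10 differed by -0.24, MITF by 0.21 and S100B by 0.027 (standard errors 0.12, 0.30 and 0.12). Of 3 markers each, 0 of the keratinocyte, 1 of the fibroblast (DCN), 1 of the leukocyte (CD68) and 1 of the endothelial markers (PECAM1) were detected on at least 3 arrays. PECAM1 was detected on 3 CT16 siRNA arrays and 0 control siRNA arrays, with log2 signals of 7.64, 7.68 and 8.01 with CT16 siRNA and 7.44, 7.54 and 7.58 with control siRNA. Its groups did not overlap (difference 0.26, standard error 0.13, limma adjusted p = 0.534), where 7.39% of all probes lay higher without overlap. PECAM1 met the filter only through the group where it was higher, so its lack of overlap is not read as a result. Its part in the RAB values was not tested. The other endothelial markers, VWF and CDH5, were detected on 0 and 1 arrays. CD68 was detected on 3 CT16 siRNA arrays and 1 control siRNA array, with overlap between the groups. The arrays had 11311 to 13110 probes with a detection p under 0.05 and median signals of 164.4 to 190.6. RAB probes detected numbered 46, 41 and 47 with CT16 siRNA and 40, 39 and 42 with control siRNA.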

How the data were processed

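Per the file headers, each array had a linear average intensity and a detection p-value for every probe, before any normalization. The authors also deposited intensity values after their own quantile normalization. Arrays were scanned with Illumina's BeadScan software, and the software that summarised the beads is not given in the paper or labels. Of the 47296 probes listed, 7 were empty, 18468 had 1 gene symbol in the platform annotation, 0 had several and 28821 had none.

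Non-normalized signals were log2 transformed, quantile-normalized and fitted with limma 3.58.1 in R 4.3.3 (lmFit, eBayes, Benjamini-Hochberg over 12082 probes with a detection p under 0.05 on at least 3 of 6 arrays), without covariates. Every adjusted p of a single probe is limma's. Quantile normalization forces 1 distribution on all arrays, so a general shift is removed. The rank product, the study's test, was written anew (9 pairwise log2 ratios, 100 permutations within arrays, fixed seed, 47289 probes, FDR under 0.05). For each gene the probe with the highest mean signal among those above background was used. Arrays give no counts, so their number limits the precision. Scripts were tested on simulated data in which every probe was drawn independently. The simulated arrays thus held no spread shared between probes, unlike the arrays here. Plots were made in Python 3.11.15 (matplotlib 3.10.9).

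The RAB genes, the melanosomal list, the role groups, the machinery list and the contrasts were chosen with earlier results of these data known. Named genes were every measured melanosomal RAB, the 5 largest differences in each direction, every RAB without overlap between groups or with a rank product FDR under 0.05, the 4 largest differences in each direction among machinery genes without overlap, and MLPH, MYO5A, SYTL2, ANKRD27, HPS1 and HPS4. RAB5A, RAB5C, RAB7A, RAB1A, RAB26, HPS6, SYTL3, SYTL4, BLOC1S2, TBC1D10A, TBC1D10B, RABGGTA and RABEP1 were named after their values were seen. Promoter sequences came from RefSeq (GRCh38.p14), with 34 of 43 measured RABs matched by symbol.

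Replicates of the same number were not taken as pairs. Alternatives were the deposited normalized values, neqc (offset 16), a median shift, a strict filter (detection p under 0.01 on 6 arrays, 8046 probes) or none, a robust fit with an intensity trend, the replicate block, the mean of detected probes, each array left out and a wider melanosomal list. A rank product on the probes above background alone was also run. Another seed and leaving out both replicate 1 arrays were added after seeing the data.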

Additional observations from a re-analysis of the deposited data

How the results depend on the processing

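No RAB or machinery gene passed limma or the rank product with a sign opposite to that in the fit reported. Short of those thresholds signs did change, for 0 to 12 of the 43 RABs with arrays left out in turn. Limma called 0 RABs under every normalization and filter, but 0 to 2 with arrays left out in turn (RAB5B without CT16 siRNA replicate 1, when 11 probes passed in all, and RAB5B with RAB3A without CT16 siRNA replicate 3, when 195 passed). Machinery calls by limma ranged from 0 to 1. RABs with an unadjusted p under 0.05, 4 in the fit reported, were 10 of 60 without a detection filter (2971 of 47289 probes), 2 of 34 with the strict filter (803 of 8046 probes), 2 of 43 without both replicate 1 arrays (536 of 12082 probes) and 1 to 20 of 43 with arrays left out in turn (505 to 3702 probes). RABs without overlap, 6 of 43 in the values reported (1974 of 12082 probes), were 3 after a median shift (1495 probes), 13 without both replicate 1 arrays (3808 probes) and 6 to 25 with arrays left out in turn (2414 to 5743 probes). The rank product called 1 RAB, but 0 after neqc and 0 to 4 with arrays left out in turn (RAB5B, RAB3A, RAB32 and RAB40C without CT16 siRNA replicate 3, 0 without control siRNA replicate 2). The share of all probes that the rank product called without CT16 siRNA replicate 3 is not given here. By limma and by overlap, counts rose over all probes in that setting (3702 with an unadjusted p under 0.05, 5743 without overlap). The rank product FDRs quoted for single genes without that array are therefore not read as results particular to those genes. The melanosomal median of -0.16 was -0.061 after a median shift, -0.058 without a filter, -0.29 with the strict filter and 0.060 for the wider list, and -0.16 to -0.12 with arrays left out in turn. The median of the other RABs was 0.12 after a median shift. The cause of these changes was not tested. Other filters and arrays left out changed which probes or arrays entered the fit, while neqc and the median shift kept the same ones.

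Same-numbered arrays of the groups had correlations of 0.423, 0.0211 and -0.41 between their deviations from the group means, so the numbers were not read as pairs. With the replicate number as a block, limma called 0 RABs, 6 had an unadjusted p under 0.05, and the rank product called 1. The numbers of arrays and the spread between the CT16 siRNA arrays limit all of these values, and with 3 arrays against 3 no exact permutation p can be under 0.1.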

Other observations

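RABEP1, an effector of RAB5 named after its values were seen, had the largest positive difference of the 80 machinery genes, with log2 signals of 10.15, 9.34 and 8.74 with CT16 siRNA and 8.85, 8.43 and 9.02 with control siRNA. Its groups overlapped, and the difference of 0.64 had a standard error of 0.33 (limma adjusted p = 0.552). A single array carried much of it, since the difference was 0.28 with CT16 siRNA array 1 left out, against 0.98 with CT16 siRNA array 3 left out. The rank product FDR in the higher direction was 0.075 over all arrays. It did not pass 0.05 with array 1 or array 2 of CT16 siRNA or array 2 of control siRNA left out, and was 0.0487, 0.0490 and 0.0301 with array 3 of CT16 siRNA, array 1 of control siRNA and array 3 of control siRNA left out.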
